A study of Mus musculus with 4 samples.

Results

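The endothelial genes of pancreatic islets are 31 genes chosen by symbol as markers of the cells that line blood vessels, out of 52636 genes in the deposited count table. All 31 had a row, and 27 passed the filter on low counts. The rule used no measured value, but the members were chosen with earlier results of these data known. RNA was sequenced from whole isolated islets, which are endocrine cell clusters scattered through the pancreas, with 2 libraries from wild-type (WT) control mice and 2 from Tspan7 knockout mice (Tspan7 y/-). Tspan7 lies on the X chromosome and encodes a tetraspanin, a protein that crosses the membrane several times. The labels give no age, strain or treatment, and they do not say whether each library came from a separate animal, so the spread between libraries may be technical. The design note speaks of KD while the knockout samples are labelled KO, and the sample labels were followed.

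Library totals ran from 7855665 to 9377220 counts. Tspan7 itself had 1924 and 1795 control counts against 3 and 2 knockout counts. With edgeR (quasi-likelihood test, Benjamini-Hochberg adjustment, threshold 0.05) it was the only gene called among 16924 tested, at a log2 fold change of -9.42 ± 0.25 SE and an adjusted p of 3.51e-06. Every fold change given here is knockout against control. Levels are in CPM, counts divided by library size after scaling for composition (TMM, the trimmed mean of M-values). The amount of digestive (acinar) cell transcripts set the libraries apart without following the genotype: 15 acinar genes summed to 3450 and 82.4 CPM in control replicates 1 and 2 and to 1554 and 7284 CPM in knockout replicates 1 and 2. Its part in the results was not tested.

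Islets are among the most densely vascularised tissues, and their capillaries are thin-walled and pierced by fenestrae, windows closed by a diaphragm through which hormones reach the blood. Beta cells secrete VEGF-A, which acts on receptors of the endothelium and maintains these vessels. Endothelial cells in turn lay down the basement membrane on which beta cells sit. In whole-islet RNA, fewer endothelial cells and less RNA per endothelial cell cannot be told apart.

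Promoter sequences are shown because factors of the ETS family bind near many endothelial genes at sites built around GGAA. The members Erg and Fli1 belong to this family. RefSeq windows on GRCm38.p6 matched 16 of the 31 members with 21 start sites. Those of Egfl7, Cd34 and Flt1 belong to genes with lower levels in each knockout library than in either control, and those of Emcn and Kdr to genes whose groups overlapped. Each window holds the 250 bases before the start site, read 5′ to 3′ on the strand of the gene. Capitals mark AGGAAG or its reverse complement CTTCCT. For Egfl7, which has 3 start sites in RefSeq, the window of the most upstream one is shown.
Egfl7, chr2:26580833-26581082, plus strand: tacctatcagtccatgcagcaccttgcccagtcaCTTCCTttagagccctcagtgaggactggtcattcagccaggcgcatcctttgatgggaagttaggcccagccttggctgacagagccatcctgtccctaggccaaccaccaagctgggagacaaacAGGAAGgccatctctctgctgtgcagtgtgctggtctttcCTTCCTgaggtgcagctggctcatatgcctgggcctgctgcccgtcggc
Cd34, chr1:194938571-194938820, plus strand: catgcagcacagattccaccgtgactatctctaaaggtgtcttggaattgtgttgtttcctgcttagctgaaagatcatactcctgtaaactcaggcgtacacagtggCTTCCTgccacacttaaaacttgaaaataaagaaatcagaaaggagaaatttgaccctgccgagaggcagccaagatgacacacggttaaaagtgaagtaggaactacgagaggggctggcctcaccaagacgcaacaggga
Flt1, chr5:147726012-147726261, minus strand: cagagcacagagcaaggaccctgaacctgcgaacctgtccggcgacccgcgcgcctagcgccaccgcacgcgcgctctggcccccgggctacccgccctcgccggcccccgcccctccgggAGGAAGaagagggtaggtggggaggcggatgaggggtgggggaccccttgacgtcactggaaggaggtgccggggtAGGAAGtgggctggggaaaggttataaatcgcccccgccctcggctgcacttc
Emcn, chr3:137340828-137341077, plus strand: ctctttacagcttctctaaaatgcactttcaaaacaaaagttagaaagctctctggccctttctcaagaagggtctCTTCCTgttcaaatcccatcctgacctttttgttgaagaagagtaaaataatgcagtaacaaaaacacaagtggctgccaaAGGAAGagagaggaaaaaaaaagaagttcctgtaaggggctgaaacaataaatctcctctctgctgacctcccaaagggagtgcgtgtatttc
Kdr, chr5:75978456-75978705, minus strand: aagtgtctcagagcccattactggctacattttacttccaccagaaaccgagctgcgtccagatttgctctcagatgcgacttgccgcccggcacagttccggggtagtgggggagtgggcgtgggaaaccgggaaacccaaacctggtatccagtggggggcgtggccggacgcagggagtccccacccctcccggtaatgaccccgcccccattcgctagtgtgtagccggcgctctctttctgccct

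Of the 21 member windows 12 held AGGAAG on either strand, or 57.1%, against 29.5% of the 32851 windows of all genes. By gene these were 11 of 16 members and 32.3% of 27025 genes. Among the windows shown, Egfl7 held 3 matches, Flt1 and Emcn 2 each, Cd34 1 and Kdr 0. The windows of Egfl7 that are not shown held 1 and 0. The bare core GGAA, which AGGAAG contains, was in 19 of 21 member windows and in 93.4% of all windows. CGGAAG was in 1 of 21 against 13.6%. The SOX core ACAAT was in 6 of 21 against 27.7%, the GATA motif AGATAA in 2 of 21 against 9.99%, and TATAAA in 2 of 21 against 12.4%. All were searched on both strands, and they were picked after several motifs had been looked at, so the shares are a description. The motif was present both in members with lower knockout values and in members without. It was also absent from members of both kinds: Tek, with both knockout levels under both controls, held 0, as did Kdr.

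The members spanned a wide range of levels. Per kilobase of exon, Plvap, which builds the diaphragm of the fenestrae, was the highest in the mean of the 4 libraries, at 37.5 CPM per kb. The next were Cdh5, the cadherin of endothelial junctions, at 13.0, the sphingosine 1-phosphate receptor S1pr1 at 11.6, the main VEGF receptor Kdr at 11.4 and the TGF-beta co-receptor Eng at 10.7 CPM per kb. The lengths join all annotated exons of a gene and can exceed a single transcript, so the order of close values is uncertain. At the other end stood Vwf, the clotting factor of larger vessels, at 0.0497 CPM per kb, and Tal1, Sox17 and the tight-junction gene Cldn5 at 0.203, 0.210 and 0.567. All of the defining markers Cdh5, Pecam1, Kdr, Tie1, Emcn, Plvap and Vwf gave counts in every library. The 7 markers of lymphatic vessels were mixed. Ccl21a and Mmrn1 gave 0 counts in all 4 libraries and Pdpn 0 to 7, while Lyve1, which macrophages also carry, gave 123 to 185, Flt4 70 to 179 and Reln 34 to 94. Prox1, which islet endocrine cells also express, gave 1313 to 2140.

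**Figure D1:**
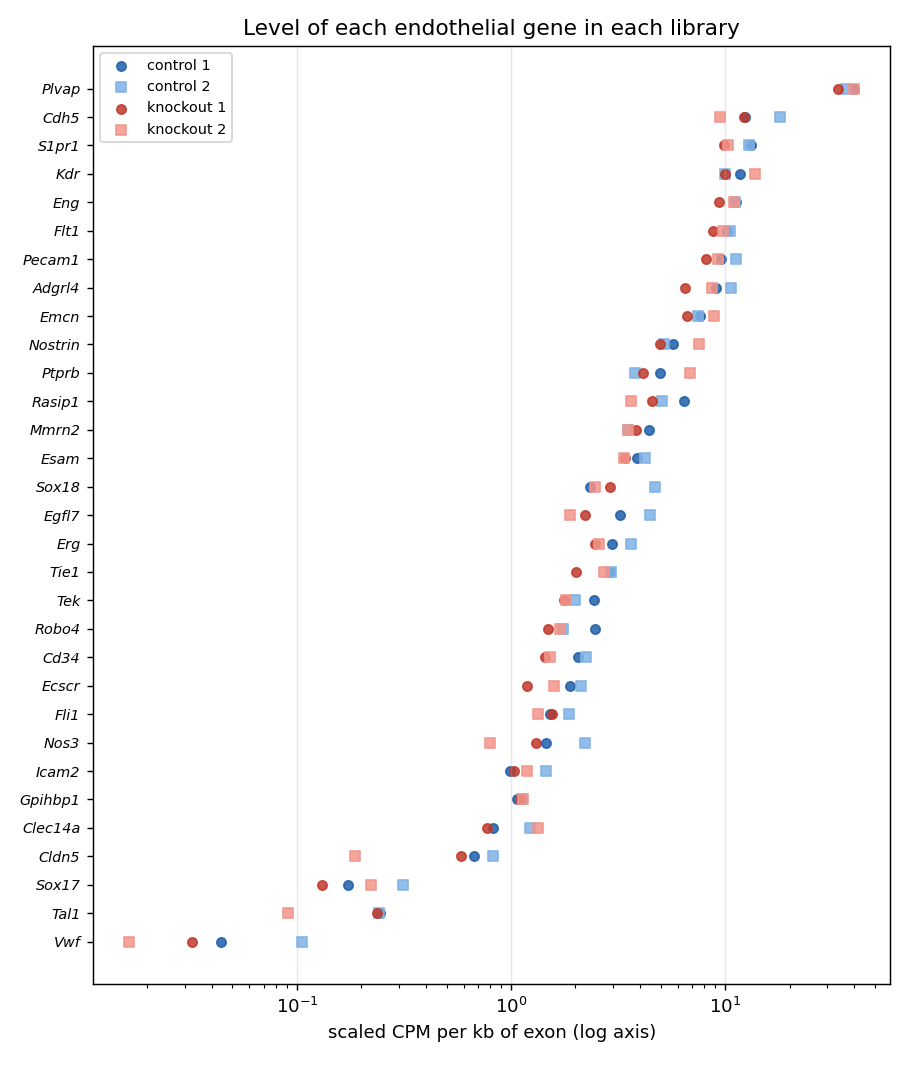
Level of each of the 31 endothelial genes in each library, in scaled CPM per kilobase of exon on a log axis; blue points are control libraries and red points knockout libraries. Plvap lies highest at a mean of 37.5 CPM per kb and Vwf lowest at 0.0497.

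Most members had slightly lower levels in the knockout libraries, and no single member passed the threshold. Of the 27 tested, 0 passed the adjusted p in either direction by edgeR (adjusted p = 0.9997 for each), DESeq2 or limma-voom, where edgeR called 0.00591% of all genes tested as lower and 0.0% as higher. At an unadjusted p under 0.05 there were 4 members lower and 0 higher by edgeR, 1 in all by DESeq2 and 3 by limma-voom. The edgeR background at that limit was 1.96% of all genes lower and 1.55% higher. In 21 members the log2 fold change was negative, against 49.4% of all genes tested. The median was -0.26, beside 0.003 over all genes tested. In 16 of the 27 each knockout level was under both control levels, as in 15.0% of all genes tested, and in 0 each was over both, as in 15.3%. These counts cover the tested members, not all 31. The lowest value was -0.91 and the highest 0.33.

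The summed level of the list in the knockouts was 90.4% of that in the controls, and its groups were apart by a narrow margin. The 31 members summed to 835 and 848 CPM in control replicates 1 and 2 and to 698 and 824 CPM in knockout replicates 1 and 2, or 842 ± 8.69 against 761 ± 88.9 (SD, n = 2 each). Knockout replicate 2 lay within a few percent of both controls and knockout replicate 1 well below them. The 4 members of highest CPM (Flt1, Kdr, Plvap and Ptprb) took between 41.9% and 51.8% of the sum. These 4 summed to 389 and 355 CPM in control and 331 and 427 CPM in knockout libraries, which overlap. The other 27 members summed to 446 and 493 CPM against 367 and 397 CPM, so that the knockout mean was 81.4% of the control mean. In this sum the groups did not overlap.

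**Figure D2:**
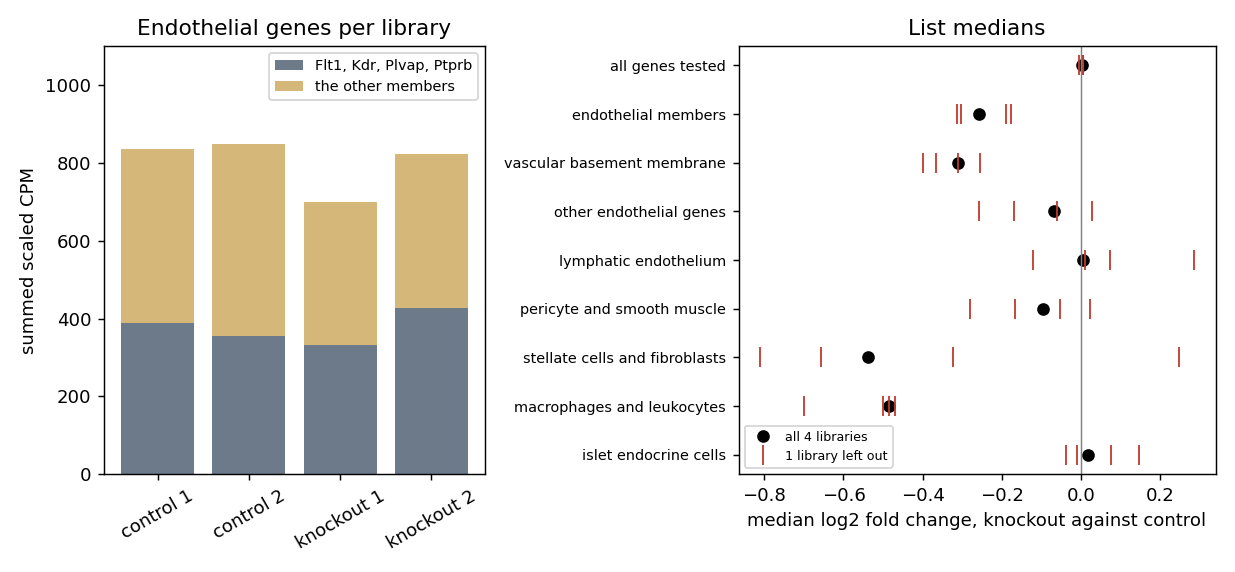
Left, summed scaled CPM of the endothelial genes in each library, split into the 4 highest members and the other 27. Right, median log2 fold change (knockout against control) of the tested genes of each list with all 4 libraries (black) and with 1 library left out (red ticks), over the genes tested with all 4; the endothelial members stand at -0.26, and the tick of stellate cells above 0 is the value without control replicate 2.

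Of the 4 receptors for VEGF and angiopoietins 3 had negative values, with each knockout level under both control levels. Among all genes tested, 49.4% had negative values and 15.0% had both knockout levels under both controls. Kdr, also known as VEGF receptor 2 and the main signalling receptor for VEGF-A, gave 891 and 852 control counts against 872 and 937 knockout counts, or 98.0 ± 10.5 against 107 ± 23.8 CPM (SD, n = 2 each). Its highest value was in knockout replicate 2, and the groups overlapped. The log2 fold change was 0.13, with a 95% confidence interval (CI) of -0.28 to 0.54, and it was -0.11 without knockout replicate 2.

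Flt1, VEGF receptor 1, which binds VEGF-A tightly and limits its signal, gave 1170 and 1332 control counts against 1145 and 996 knockout counts. Both knockout levels (119 and 132 CPM) lay below both control levels (138 and 142 CPM). Its log2 fold change was -0.16 ± 0.13 (SE), with a CI of -0.47 to 0.15, and -0.08 without knockout replicate 1.

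Tek encodes Tie2, the receptor of the angiopoietins, and Tie1 its partner receptor. Tek gave 97 and 88 counts against 80 and 64, and Tie1 gave 121 and 135 against 95 and 101. In both genes the knockout libraries were the lower pair. The log2 fold change was -0.31 for each, with a CI of -0.83 to 0.21 for Tek and -0.81 to 0.19 for Tie1. Tek stood at -0.16 without control replicate 1, and Tie1 at -0.10 when knockout replicate 1 was left out and -0.54 when knockout replicate 2 was. Ptprb encodes VE-PTP, the phosphatase that restrains Tie2 and VE-cadherin. It gave 557 and 474 control counts against 531 and 690 knockout counts, and it had the highest log2 fold change of the list (0.33, CI -0.28 to 0.94). That value rested on knockout replicate 2 and was -0.08 without it.

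S1pr1, the sphingosine 1-phosphate receptor that keeps vessels tight, had close agreement between replicates. It measured 40.3 and 39.4 CPM in control and 30.2 and 31.4 CPM in knockout libraries, from 237 to 371 counts each. The log2 fold change was -0.37 ± 0.14 (SE), with a CI of -0.70 to -0.05, and leaving out 1 library moved it only between -0.34 and -0.40. Eng, endoglin, was at 45.4 and 45.1 against 37.8 and 44.7 CPM, with a log2 fold change of -0.14 (CI -0.47 to 0.20) that was -0.02 with knockout replicate 1 left out and -0.26 with knockout replicate 2 left out.

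Junction and adhesion genes had mostly negative values. Cdh5 gave 441 and 710 control counts against 498 and 299 knockout counts, or 52.2 and 75.5 against 51.7 and 39.6 CPM. Control replicate 2 was high, while control replicate 1 and knockout replicate 1 were nearly level. The log2 fold change of Cdh5 was -0.48 ± 0.21 (SE). It was -0.72 without control replicate 1 and -0.19 without control replicate 2.

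Pecam1, the platelet and endothelial adhesion molecule CD31, gave 503 and 656 counts against 489 and 436, a log2 fold change of -0.25 (CI -0.60 to 0.09). Leaving out control replicate 2 gave -0.13 and leaving out knockout replicate 1 gave -0.16. Esam, a junction molecule, stood at -0.26 and Icam2, a ligand of leukocyte integrins, at -0.15, the latter from 16 to 26 counts a library. Of the 5 tested genes of this role 3 had knockout libraries below both controls, beside 15.0% of all genes tested. The role also holds Ptprb, described above, at 0.33 with overlapping groups.

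Of the 6 sialomucins and orphan surface receptors 4 had negative values, each with knockout levels under both control levels. Over all genes tested, 49.4% were negative and 15.0% were so apart. Cd34, a sialomucin of endothelium and blood progenitors, gave 127 and 153 control counts against 101 and 84 knockout counts, or 15.6 ± 0.872 against 10.8 ± 0.456 CPM (SD, n = 2 each). Its groups were well apart, with a log2 fold change of -0.53 ± 0.19 (SE), between -0.48 and -0.59 with 1 library left out. Adgrl4, an adhesion receptor of endothelium, gave 350 and 460 counts against 286 and 301. Its log2 fold change was -0.38 ± 0.18 (SE). It was -0.26 without control replicate 2, -0.18 without knockout replicate 1 and -0.60 without knockout replicate 2.

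Ecscr, a small endothelial surface protein, stood at -0.55 from 20 to 35 counts a library, and Robo4, a guidance-type receptor that stabilises vessels, at -0.40. Ecscr was at -0.33 with knockout replicate 1 left out, and Robo4 at -0.13 with control replicate 1 left out and -0.63 with control replicate 2 left out. Emcn, the sialomucin endomucin, measured 41.1 and 40.5 CPM in control and 35.7 and 48.1 CPM in knockout libraries, with overlapping groups (log2 fold change 0.04, CI -0.36 to 0.43). Clec14a, a C-type lectin of vessels, stood at 0.01 from 32 to 53 counts a library. Mmrn2, the matrix protein to which Clec14a binds, stood at -0.10.

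Egfl7, a protein that endothelial cells secrete into their matrix, had the smallest p of the list (0.00561 unadjusted). It gave 98 and 150 control counts against 76 and 51 knockout counts, or 13.8 ± 3.07 against 7.33 ± 0.801 CPM (SD, n = 2 each). Both knockout libraries were below both controls. The log2 fold change was -0.91 ± 0.24 (SE), with a CI of -1.47 to -0.35, a fitted knockout level of 53.3% of control. It ran from -0.66 without control replicate 2 to -1.12 without control replicate 1. Egfl7 shares exon bases with neighbouring genes on both strands, and Eng, Cd34, Ecscr, Nos3 and Rasip1 also share exon bases with neighbours, so these counts are uncertain.

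Egfl7 is the host gene of the endothelial microRNA miR-126, whose mature sequence in RefSeq is printed with its seed, bases 2 to 8, in capitals, because its precursor has a row of its own in the table.
mmu-miR-126a-3p, chr2:26591402-26591423, plus strand: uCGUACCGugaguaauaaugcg
The row of Mir126a gave 4 and 13 control counts against 5 and 1 knockout counts and did not pass the low-count filter. A gene-level row of this kind does not measure the mature microRNA.

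Plvap gave 673 and 684 control counts against 642 and 597 knockout counts, 76.2 ± 4.91 against 72.9 ± 8.81 CPM (SD, n = 2 each), with overlapping groups. Its log2 fold change of -0.06 had a CI of -0.40 to 0.28. Gpihbp1, which carries lipoprotein lipase across the capillary wall, was the steadiest of the scarce members, at 2.72 and 2.87 CPM in control and 2.80 and 2.92 CPM in knockout libraries (log2 fold change 0.03, CI -0.72 to 0.78).

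Enzymes and adaptors inside the cell were split. Nos3, the endothelial nitric oxide synthase, gave 51 and 86 control counts against 52 and 25 knockout counts, a log2 fold change of -0.78 ± 0.34 (SE). The order of the groups rested on a narrow gap between control replicate 1 (6.03 CPM) and knockout replicate 1 (5.40 CPM), and the value was -0.45 with control replicate 2 left out and -1.19 with knockout replicate 1 left out. Nostrin, which moves Nos3 from the membrane into the cell, gave 91 and 92 counts against 90 and 108 (0.19, CI -0.39 to 0.78, and -0.14 without knockout replicate 2). Rasip1, a Rap1 effector needed to open vessel lumens, gave 174 and 152 counts against 140 and 88. Its log2 fold change was -0.48 ± 0.21 (SE), and -0.30 without control replicate 1.

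Of the transcription factors, Erg gave 87 and 119 control counts against 82 and 67 knockout counts, with both knockout levels the lower (log2 fold change -0.40 ± 0.22 SE). Erg stood at -0.24 without control replicate 2. Its relative Fli1, which leukocytes also express, stood at -0.23 and Sox18 at -0.40, both with overlapping groups. Fli1 was at -0.080 with control replicate 2 left out and -0.13 with knockout replicate 2 left out. Sox18 rested on control replicate 2 (7.65 CPM, against 3.79 to 4.67 in the other libraries) and was 0.20 without it.

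The 4 members below the low-count filter were Cldn5, Vwf, Sox17 and Tal1, and the depth allowed no call on them. Cldn5 gave 8 and 11 control counts against 8 and 2 knockout counts. Vwf gave 6 and 16 against 5 and 2, Sox17, an arterial transcription factor, 7 and 14 against 6 and 8, and Tal1, a factor of blood and vessel lineages, 9 and 10 against 10 and 3. With these included and no filter, 25 of 31 members had a negative value and the median was -0.30, beside 0.04 over all genes.

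**Figure D3:**
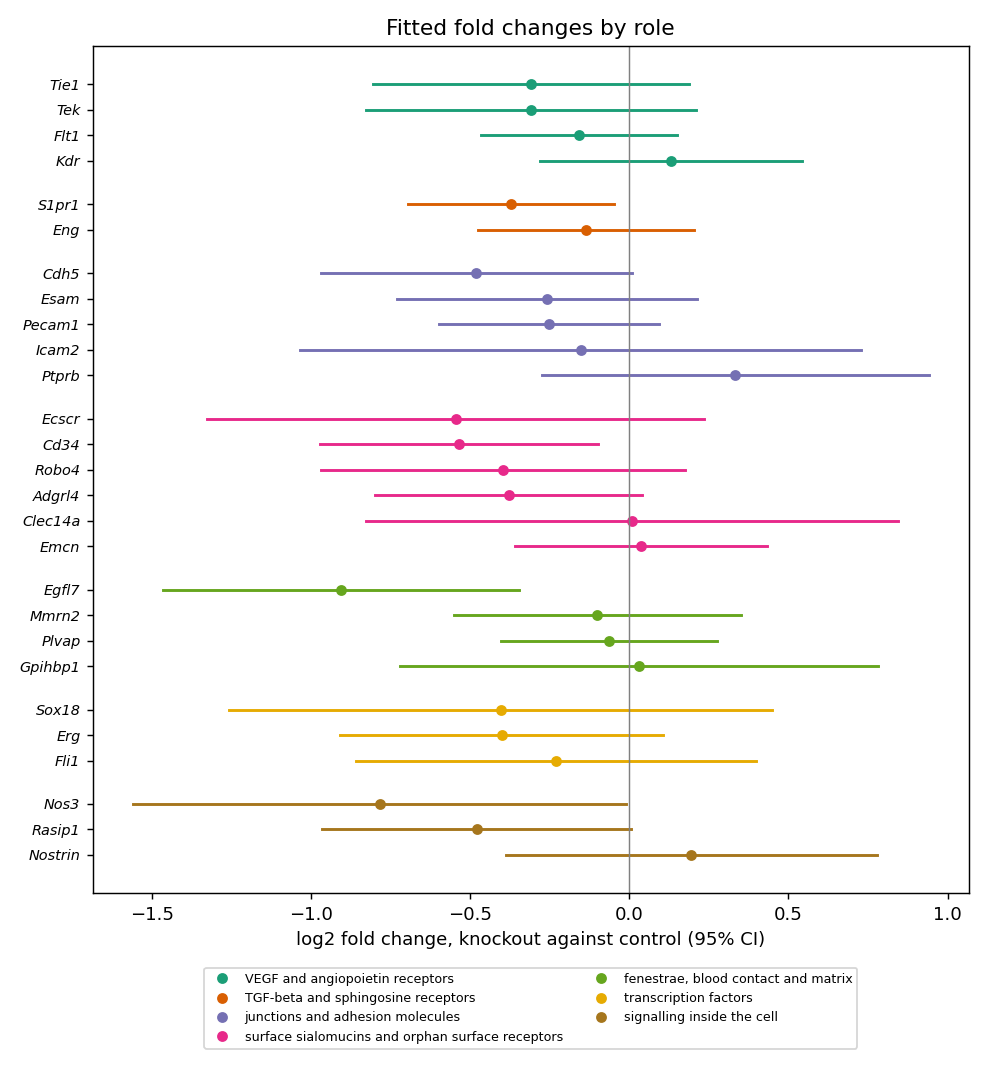
Fitted log2 fold change (knockout against control) of the 27 tested endothelial genes with its 95% confidence interval, coloured by role. Egfl7 lies lowest at -0.91 and Ptprb highest at 0.33, and most intervals span 0.

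The members did not keep one ratio from library to library. Between knockout replicate 1 and control replicate 1 the 27 tested members differed by a median log2 ratio of -0.23, with 23 lower. The scatter of their counts around a common ratio was near counting noise (chi-square per degree of freedom 1.28, where 1 is counting noise alone). Between knockout replicate 2 and control replicate 2 the median was -0.27 with 19 lower, and the scatter was far larger (14.1). The crosswise pairs gave a median of -0.31 with 24 lower (knockout replicate 1 over control replicate 2, scatter 4.29) and of -0.10 with 19 lower (knockout replicate 2 over control replicate 1, scatter 5.29). Between knockout replicate 2 and control replicate 2, ratios ran from -1.46 for Nos3 to 0.86 for Ptprb. Replicates of a single group also scattered, at 4.99 between the controls and 4.92 between the knockouts. Over all genes with at least 20 counts in a pair the measure was 7.08 for the replicate 1 pair and 19.97 for the replicate 2 pair. It grows with the counts of the genes, and each set used its own common ratio. The values of the members and of all genes are therefore not comparable. Knockout replicate 1 held the lowest value of 15 members and the highest of 0, and control replicate 2 the highest of 14.

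**Figure D4:**
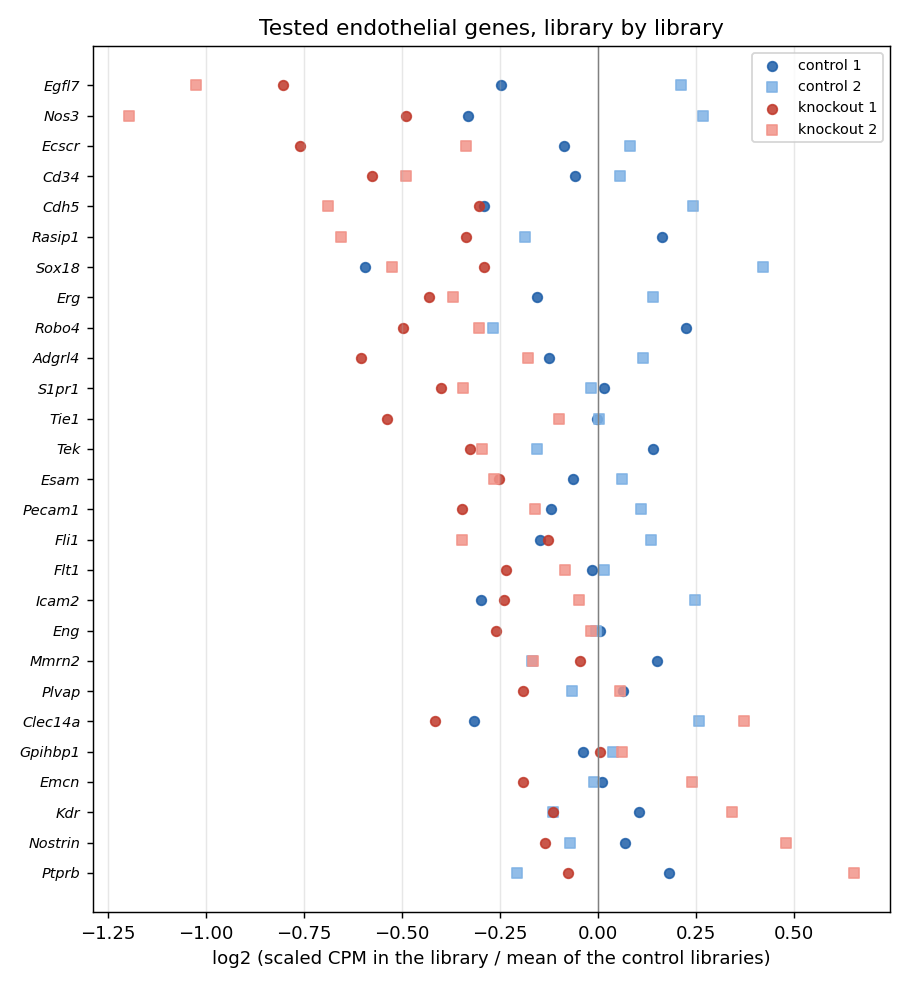
log2 ratio of each library to the mean of the control libraries for the 27 tested endothelial genes, ordered by fitted fold change. Egfl7 and Cd34, near the top, have both knockout libraries (red) left of both controls (blue), while Kdr, Nostrin and Ptprb at the bottom have knockout replicate 2 to the right.

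Ligands and co-receptors of these genes did not share a direction. Vegfa, the ligand of Kdr and Flt1, gave 2966 and 3535 control counts against 3591 and 3463 knockout counts, or 363 ± 17.5 against 416 ± 60.9 CPM (SD, n = 2 each), with overlapping groups. Its log2 fold change was 0.20 ± 0.15 (SE), and it was 0.037 with knockout replicate 2 left out and 0.34 with knockout replicate 1 left out. Of the 7 tested VEGF ligands and co-receptors 3 had negative values. Their median of 0.18 was -0.21 with control replicate 2 left out and -0.07 with knockout replicate 2 left out. The co-receptor Nrp2 had 128 and 192 counts against 147 and 77, a log2 fold change of -0.47 ± 0.25 (SE). Flt4, VEGF receptor 3, had 117 and 179 against 136 and 70, or -0.48 ± 0.26 (SE). Both genes had overlapping groups, and with 1 library left out Nrp2 ran from -0.80 to -0.22 and Flt4 from -0.82 to -0.22. The ligand Pgf stood at 0.60 ± 0.40 (SE), and at -0.07 without knockout replicate 2. Angpt2, the angiopoietin released by endothelial cells themselves, gave 139 and 240 counts against 145 and 103, with a log2 fold change of -0.55 ± 0.24 (SE). It was -0.83 without control replicate 1 and -0.19 without control replicate 2. Angpt1, the activating ligand of Tek, gave 1 to 9 counts a library.

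Of the pathway and cell type lists set beside the members, 0 tested genes passed the adjusted threshold with all 4 libraries by edgeR. The adjusted p of each gene named from them was 0.9997, except for 2 interferon genes given further on. Of 9 tested genes of the BMP and endoglin arm 4 had negative values (median 0.04, and from -0.15 to 0.08 with 1 library left out). Acvrl1, the ALK1 receptor that signals with Eng, measured 13.7 ± 0.699 against 9.05 ± 0.319 CPM (SD, n = 2 each), a log2 fold change of -0.60 ± 0.20 (SE). It lay between -0.55 and -0.66 with 1 library left out. Of 9 Notch genes 5 had negative values (median -0.04, and from -0.12 to 0.11 with 1 library left out). The ligand Jag1 had 126 and 220 counts against 152 and 93, overlapping groups with a log2 fold change of -0.44 ± 0.25 (SE) that was -0.080 without control replicate 2. Nrarp, a target of Notch, had 67 and 56 against 51 and 34, or -0.49 ± 0.28 (SE) and -0.27 without control replicate 1. Of 7 sphingosine genes 5 had negative values (median -0.17, and from -0.27 to 0.02 with 1 library left out), with Spns2, the endothelial exporter of sphingosine 1-phosphate, at -0.53 (-0.21 without control replicate 2). The kinase gene Sphk2 stood at 0.70. It was called higher when control replicate 1 was left out (1.39, adjusted p = 0.0211), and was at 0.23 when control replicate 2 was.

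Among 22 other partners 17 had negative values, where 49.4% of all genes tested did. The median was -0.11, and from -0.15 to -0.03 with 1 library left out. Cd93, which binds Mmrn2, gave 311 and 345 control counts against 226 and 220 knockout counts, a log2 fold change of -0.48 ± 0.16 (SE). The ETS factor Ets1 stood at -0.55 ± 0.21 (SE), and at -0.28 without control replicate 2. Lpl, the lipase that Gpihbp1 carries, was on the higher side, with 1241 and 1047 control counts against 1862 and 1322 knockout counts (0.51 ± 0.17 SE, and 0.33 without control replicate 2).

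Genes of the vascular basement membrane had mostly negative values. Of 13 tested 12 were negative with a median of -0.31, and in 8 each knockout level was under both control levels, as in 15.0% of all genes tested. Sparc, a collagen-binding matrix protein, measured 48.3 ± 8.05 against 30.7 ± 0.823 CPM (SD, n = 2 each), a log2 fold change of -0.65 ± 0.16 (SE). The type IV collagen gene Col4a2 stood at -0.39 ± 0.15 and the endothelial laminin gene Lama4 at -0.58 ± 0.24 (SE), the latter -0.31 without control replicate 1. The list median lay between -0.25 and -0.40 with 1 library left out.

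A wider list of 36 tested endothelial genes had a median of -0.07, with 23 negative, where 49.4% of all genes tested were. At an unadjusted p under 0.05, 5 were lower and 0 higher, beside 1.96% and 1.55% of all genes. Several of its genes are also expressed by other islet cells. Its median was -0.26 with knockout replicate 2 left out and 0.03 with knockout replicate 1 left out. Vcam1, an adhesion molecule that inflamed endothelium displays, gave 20 and 28 control counts against 6 and 3 knockout counts, a log2 fold change of -2.33 ± 0.48 (SE). Without the filter on low counts it was called lower (-2.32, adjusted p = 0.0231). Apln, a peptide of sprouting endothelium, gave 35 and 87 counts against 19 and 15 (-1.76 ± 0.44 SE, and -1.06 without control replicate 2). It was also called lower without that filter (-1.74, adjusted p = 0.00223) and with control replicate 1 left out (-2.22, adjusted p = 0.0370). Procr, the endothelial protein C receptor, stood at -1.35 ± 0.46 (SE) from 8 to 30 counts a library.

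Markers of other cells were set beside the endothelial genes. Of 15 tested macrophage and leukocyte genes 15 had a negative log2 fold change, beside 49.4% of all genes tested. Their median was -0.48, and from -0.70 to -0.47 with 1 library left out. In 9 each knockout level was under both control levels, beside 15.0% of all genes tested. The 18 listed summed to 132 and 111 CPM in control and 92.2 and 80.6 CPM in knockout libraries. In each library 0 of the 18 were at 0 counts. Ptprc, the pan-leukocyte CD45, stood at -0.94 ± 0.24, the protease gene Ctss at -0.64 ± 0.18 and the tetraspanin gene Cd53 at -1.32 ± 0.37 (SE). Leukocytes share Cd34, Fli1, Pecam1, Icam2 and S1pr1 with endothelium. Of 10 tested pericyte and smooth muscle genes 6 were negative (median -0.10). In 3 each knockout level was under both control levels and in 3 over both. Over all genes tested, 49.4% were negative, 15.0% were under both and 15.3% over both. The pericyte median was 0.02 with knockout replicate 1 left out and -0.28 with knockout replicate 2 left out. The 13 listed summed to 240 and 260 CPM against 187 and 238 CPM. Mcam and the receptor gene Pdgfrb stood at -0.49 and -0.60, and at -0.17 and -0.24 with control replicate 2 left out. Rgs5 stood at -0.29, and at -0.09 with knockout replicate 1 left out. These were the 3 under both control levels, and the 3 over both were Acta2, Myh11 and Cspg4. The 6 platelet genes summed to 4.14 and 5.53 against 3.12 and 4.51 CPM, and the defining Pf4 and Ppbp gave 0 or 1 count in each library. Of 5 tested stellate and fibroblast genes 3 were negative (median -0.54, and 0.25 without control replicate 2). The 12 islet endocrine genes had a median of 0.02 (from -0.04 to 0.15 with 1 library left out), with 6 negative. Of 15 tested genes of the interferon response, which many cell types mount, 15 were negative. The median was -0.92, and from -1.27 to -0.58 with 1 library left out. The 16 listed summed to 391.9 and 304 against 217 and 207 CPM. The log2 fold changes of Oasl2 and Irf7 were -1.39 and -1.37, each with an adjusted p of 0.684 by edgeR, and Mx1 stood at -2.14. Oasl2 was called lower by DESeq2 (adjusted p = 0.0135). Of 10 tested hypoxia genes 6 were negative (median -0.01, and from -0.12 to 0.10 with 1 library left out), and of 7 duct genes 4 (median -0.06, and from -0.24 to -0.02). The 9 lymphocyte genes summed to at most 2.96 CPM in a library, the 5 red blood cell genes to at most 2.80 and the 7 Schwann and neural genes to at most 17.4. The part of these cells in the endothelial values was not tested.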

How the data were processed

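The authors deposited one table of raw counts per Ensembl gene for 2 control and 2 knockout libraries. Per the submitters' processing notes, HISAT2, featureCounts and the build GRCm39 were used, with no versions. Per the labels' protocols, islets were kept in Trizol, and a directional kit made the libraries. No source used here states the annotation release, the strand setting in counting or the treatment of multi-mapping reads. Of the members, 7 share exon bases with another annotated gene (Egfl7, Eng, Sox17, Nos3, Rasip1, Ecscr and Cd34), so their counts are uncertain.

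Symbols, exon lengths and gene overlaps came from GENCODE M21 (GRCm38), which named 52403 of 52636 identifiers. Promoter and microRNA sequences and their coordinates came from RefSeq on GRCm38.p6. Because the builds differ, no other coordinates are given, and levels per kb use GRCm38 exon lengths, joined over all annotated transcripts of a gene.

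Counts were analysed in edgeR 4.0.16 (R 4.3.3): filterByExpr with a minimum count of 10, which left 16924 genes, trimmed mean of M-values scaling, and the robust two-sided quasi-likelihood F test with no covariate. Adjusted p-values are Benjamini-Hochberg over all genes tested, called at 0.05. Alternatives used DESeq2 1.42.0 and limma 3.58.1. At these depths 3 counts correspond to between 0.312 and 0.398 scaled CPM, and the reads carried no molecular identifiers. Pairs of libraries differed by more than sampling noise, and each counted as 1 sample. That scatter does not show whether the libraries came from separate animals.

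The members, gene lists, tests and named genes were chosen with earlier results of these data known. Named were the 8 tested members of smallest unadjusted p, the 4 of highest CPM, Kdr, Flt1, Tek and Tie1, members under the filter, up to 3 genes of each other list by smallest p, and always Vegfa, Angpt1, Angpt2 and Tspan7. Some genes that this rule allows are not described, and lists of other cell types are given mainly by their sums and medians. Other members named, Mir126a, genes of the motif windows, and Acta2, Myh11 and Cspg4 were chosen after their values were seen.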

Additional observations from a re-analysis of the deposited data

How the results depend on the processing

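Over all tested genes the number called was 1 with all 4 libraries, and also 1 with relative log expression scaling and with limma-voom. It was 62 with no low-count filter and 6 with DESeq2. It ran from 1 to 48 with 1 library left out, 48 when control replicate 1 was left out and 2 when control replicate 2 was. The number of endothelial members called was 0 under every alternative run. Their median log2 fold change stayed between -0.34 and -0.19 with 1 library left out and the filter applied anew, and it was -0.30 with no filter. Same-numbered libraries deviated against each other (correlation -0.31 over 15549 genes). The labels do not say whether equal numbers share a day or litter, and this correlation cannot decide it. With the replicate number as a block 6 genes were called, and with the crossed pairing, chosen after seeing the data, 2 were. Of 270 values of single members under alternatives, 256 kept their sign and 14, in 10 members, did not. With 1 library left out, the log2 fold change of Kdr ran from -0.11 to 0.35, Emcn from -0.19 to 0.24, Plvap from -0.19 to 0.059, Sox18 from -0.82 to 0.20, Ptprb from -0.077 to 0.66, Mmrn2 from -0.26 to 0.064, Clec14a from -0.42 to 0.37, Icam2 from -0.39 to 0.15, Gpihbp1 from -0.0081 to 0.069 and Nostrin from -0.14 to 0.48. Clec14a was also at -0.0086 with the crossed pairing and -0.037 with limma-voom. Among genes of the other lists, Pgf ran from -0.073 to 1.09, Prox1 from -0.0089 to 0.75 and Col1a1 from -1.04 to 0.26. The cause of these shifts was not tested. A group left with 1 library was assumed to vary like the other. Members with under 30 counts a library, such as Icam2 and Gpihbp1, had intervals that span both directions.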

Other observations

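Of the members, 7 share exon bases with another annotated gene, and their values lay lower than those of the rest. The 6 of these that were tested (Egfl7, Eng, Nos3, Rasip1, Ecscr and Cd34) all had a negative log2 fold change, with a median of -0.54 and a range from -0.91 to -0.14, and in all 6 each knockout level was under both control levels, where 49.4% of all genes tested were negative and 15.0% were so apart. Of the 21 tested members that share no exon bases, 15 had a negative value, the median was -0.23, and 10 had knockout levels under both control levels. The split was noticed after the values were seen, and its part in the result was not tested. Of the neighbours of Egfl7, Gm20532 on the same strand had 45 and 81 control counts against 48 and 50 knockout counts. Agpat2 on the opposite strand had 67 and 70 against 57 and 57.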
